A study of Mus musculus with 6 samples.

Results

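Cadherins are calcium-dependent adhesion proteins that join cells by binding a cadherin of the same or a related kind on the neighbouring membrane. The classical cadherins fall into type I (such as N-cadherin) and type II, and both hold catenins on their cytoplasmic side, which link the junction to actin. Non-clustered protocadherins are weaker adhesion molecules. Their delta-1 and delta-2 classes differ in their cytoplasmic motifs, and several delta-2 members bind the WAVE complex, which builds branched actin. In the nervous system, combinations of these genes mark nuclei, layers and projection neurons, and take part in axon growth and in the choice of synaptic partners.

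The genes described here are all those of the deposited table whose symbol is Cdh or Pcdh followed by a number, with an optional x, and they number 35 among 23337 symbols. They comprise 23 Cdh and 12 Pcdh genes. The clustered protocadherins are not among them. The libraries hold poly(A) RNA of midbrain dopaminergic neurons, sorted from the SNc (substantia nigra pars compacta) of adult C57BL/6 mice. All mice carried Sox6-FSF-Cre, Th-2A-Flpo and RC-Frepe. In this intersectional design Flp recombinase is made from the Th locus, and the Sox6 allele makes Cre only in cells with Flp. The reporter then gives GFP where both recombinases acted and mCherry where Flp acted alone. Sorted GFP+ neurons form the Sox6+ group and sorted mCherry+ neurons the Sox6- group, with 3 libraries each, numbered 103, 825 and 1211 in both groups. Both recombinations are permanent, so the colour of a cell records past as well as present activity of these genes. How many mice went into a library is not given in the sources used here, so p-values measure the spread between these libraries, which may be technical.

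Libraries held 10397924 to 12952768 reads in genes, recovered from the deposited values. Sox6 lay at 389.0 to 840.5 normalised reads in the Sox6+ libraries and at 18.1 to 103.6 in the Sox6- libraries. Summed over 9 dopaminergic markers, among them Th and Slc6a3, levels ran from 147520.6 to 254563.7 in Sox6+ and from 44805.4 to 139473.2 in Sox6- libraries. Sox6+ library 825 stood apart, with the fewest genes detected (13429) and with macrophage transcripts: the sum of 13 macrophage and microglial markers was 28663.3 there and at most 77.9 in any other library. The 5 GABAergic markers summed to 6669.9, 5.7 and 1472.1 in Sox6+ libraries 103, 825 and 1211, against 15501.2, 4393.8 and 12280.2 in the Sox6- libraries of the same numbers. All 5 had a negative log2 difference and Sst alone passed the test. Npy was at 0 in every Sox6+ library. Oligodendrocyte markers summed to 2106.6 in Sox6+ library 825 and to at most 392.3 elsewhere, and ependymal markers to 474.1 in Sox6+ library 1211 and to at most 11.1 elsewhere. The 4 markers of oligodendrocyte precursors were at 0 in all libraries.

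Of the 35 genes, 27 had a mean of at least 10 normalised reads over the 6 libraries and were tested. Another 4, Cdh1, Cdh3, Cdh24 and Cdh26, had reads but stayed below that level. Cdh5, Cdh16, Cdh19 and Pcdh12 were at 0 in all 6 libraries. Values are read counts divided by a size factor per library. Differences are Sox6+ minus Sox6- on the scale of log2(value + 1), tested with limma across all 13175 tested genes with Benjamini-Hochberg adjustment. In bulk libraries, fewer cells of a type and less RNA per cell cannot be told apart.

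The upstream sequence of Cdh8 and Cdh20 is shown first because these type II genes, with Cdh11, had every Sox6+ library above every Sox6- library. Each run is the 250 bases before the start site in RefSeq on GRCm38.p6, read 5′ to 3′ on the strand of the gene. Cdh8 is at chr8:99416472-99416721 on the minus strand and Cdh20 at chr1:104768270-104768519 on the plus strand. Capitals mark CCAAT and its complement ATTGG, the CCAAT box of many promoters.
Cdh8: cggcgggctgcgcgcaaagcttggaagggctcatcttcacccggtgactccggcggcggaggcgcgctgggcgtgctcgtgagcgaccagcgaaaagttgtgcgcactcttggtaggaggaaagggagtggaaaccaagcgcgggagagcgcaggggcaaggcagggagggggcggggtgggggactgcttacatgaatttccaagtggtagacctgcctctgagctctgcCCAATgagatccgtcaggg
Cdh20: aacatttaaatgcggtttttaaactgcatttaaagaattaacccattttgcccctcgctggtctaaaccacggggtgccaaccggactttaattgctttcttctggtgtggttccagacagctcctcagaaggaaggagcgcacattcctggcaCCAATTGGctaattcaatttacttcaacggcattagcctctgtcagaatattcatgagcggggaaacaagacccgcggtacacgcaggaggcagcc

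The upstream run of Cdh8 is 64.4% G and C, that of Cdh20 47.6%, and the median over 32851 promoter entries is 52.4%. The Cdh8 match begins 19 bases before the start site. In Cdh20 the motif and its complement share 2 bases, the first match beginning 96 bases before the start. Of the 22 members with a promoter entry, 14 hold a CCAAT box on either strand, and 33.8% of all entries hold it. Here and below, members are counted by symbol over all their entries and the background by single entry, so the shares are not like for like. Of the same 22, 0 hold AACAAT or its complement ATTGTT, a core sequence bound by Sox factors, which 9.4% of all entries hold. TATAAA or its complement TTTATA is present in 2 of them and in 12.4% of all entries.

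Over the whole family, the type II cadherins Cdh11, Cdh8 and Cdh20 were higher in every Sox6+ library than in any Sox6- library, by 2.82, 2.68 and 3.24-fold on the log2(value + 1) scale. The delta-1 protocadherin Pcdh11x and the tip-link cadherin Cdh23 lay lower in every Sox6+ library. Cdh23, with means of 2.9 in Sox6+ and 18.9 in Sox6- libraries, reached the filter of 10 only through its Sox6- values. The abundant members Cdh13, Pcdh9, Cdh10 and Pcdh10 had overlapping groups. With limma, 0 of the 27 tested members passed an adjusted p of 0.05, where 0.304% of all tested genes did (0.129% higher and 0.175% lower in Sox6+). The edgeR quasi-likelihood test on recovered reads also called 0 members, where 0.0455% of all genes passed (0.00759% higher and 0.038% lower). DESeq2 on those reads called 2, Cdh11 and Cdh8, both higher, where 2.98% of all genes passed (1.31% higher and 1.66% lower). The same 2 passed in the authors' deposited table, where 2.83% of genes did, 1.25% of the genes being higher in Sox6+. That table also holds a DESeq2 test of these libraries, so it adds no separate result. At an unadjusted p of 0.05, 4 members passed with limma, where 11.4% of all genes did, and 5 with edgeR, where 10.0% did. Groups did not overlap for 5 of 27 members, or 18.5%, close to the 17.0% of all tested genes. Of the 5, 3 were higher and 2 lower in Sox6+, against 7.86% and 9.19% of all tested genes. The median log2 difference was -0.19 over the 27 and -0.02 over all tested genes.

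**Figure D1:**
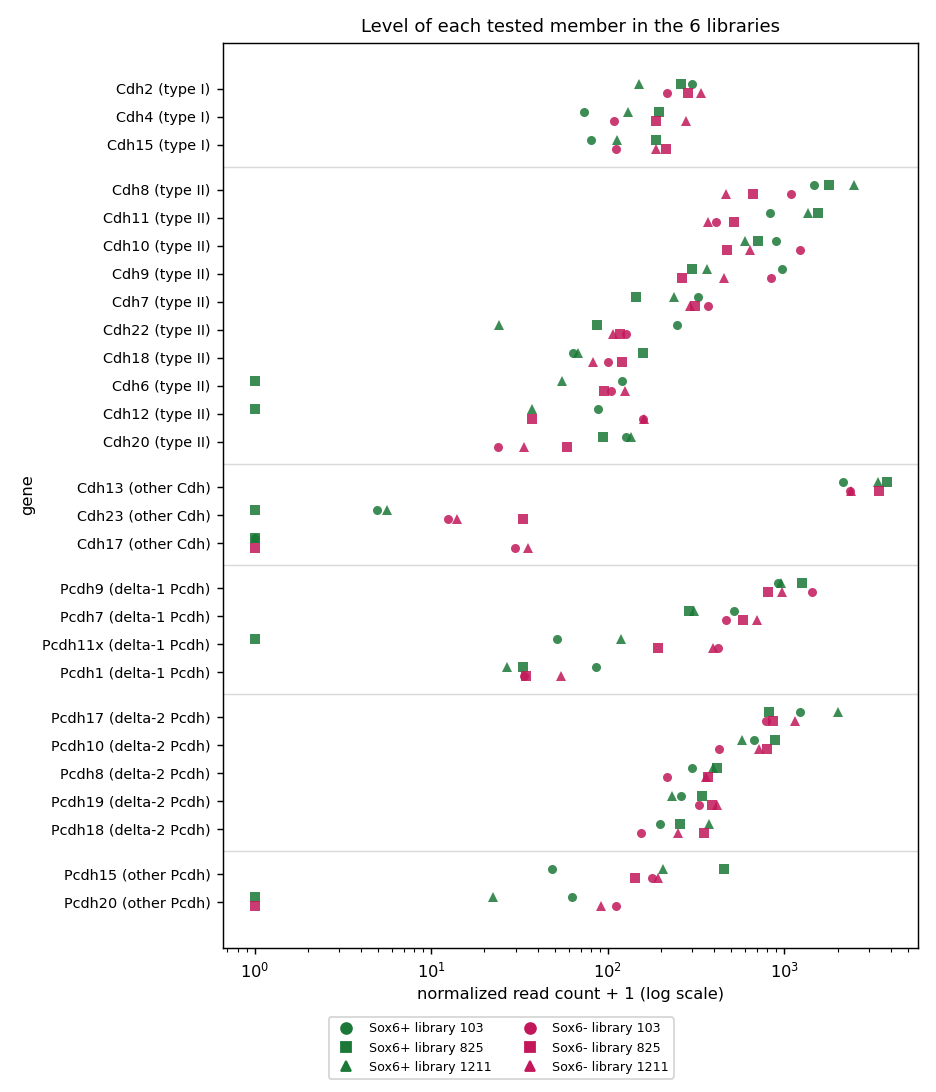
Normalised read count plus 1 (log axis) of the 27 tested members in each library, grouped by class, with Sox6+ libraries in green above Sox6- libraries in magenta. The 3 green points of Cdh8, Cdh11 and Cdh20 lie right of all magenta ones, and for Cdh6, Cdh12, Pcdh11x and Cdh23 the only library at 0 is Sox6+ library 825.

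Per kilobase of exon, the highest levels over the 6 libraries belonged to Cdh13, Cdh8 and Pcdh9, followed by Cdh9, Cdh11 and Pcdh17. Cdh13 encodes T-cadherin, which is held by a lipid anchor, lacks a cytoplasmic domain and binds adiponectin. Its normalised count per kb was 276 ± 76.9 in Sox6+ and 242 ± 55.6 in Sox6- neurons (SD, n = 3 each). Averaged over the 6 libraries it stood above 80.9% of all tested genes on that scale. Cdh8 had 246 ± 67.5 per kb in Sox6+ and 95.3 ± 40.9 in Sox6- neurons (SD, n = 3 each). In Sox6- neurons the mean of Cdh8 was below those of Cdh13, Pcdh9 (158 ± 48.3 per kb) and Cdh9 (147 ± 82.8 per kb), with SDs that overlap those of Pcdh9 and Cdh9. Among tested members the lowest levels per kb were those of Cdh23, Cdh17 and Pcdh1.

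The type I cadherins were of low to middle abundance. Cdh2 encodes N-cadherin, the main type I cadherin of neuronal synapses. It lay at 297.9, 259.6 and 148.8 in Sox6+ libraries 103, 825 and 1211, against 214.9, 283.0 and 333.9 in the Sox6- libraries in the same order. The groups overlapped, and the log2 difference was -0.27 with a 95% interval of -1.01 to 0.46. Cdh4, R-cadherin, averaged 131.7 ± 60.8 in Sox6+ and 190.4 ± 84.5 in Sox6- neurons, and Cdh15, the M-cadherin of muscle, 125.8 ± 55.3 and 169.4 ± 52.7 (SD, n = 3 each). Both overlapped between groups. Of the epithelial type I cadherins, Cdh1 had 30 reads, all in Sox6+ library 825, and Cdh3 had 21 reads in Sox6+ library 103 and 8 in the Sox6- libraries. Library 825 is the one with macrophage transcripts, and the source of its Cdh1 reads was not tested.

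Cdh11, a type II cadherin first known from osteoblasts and also made by neurons, had the smallest p of the family. Its gene spans positions 102632095 to 102785642 of the minus strand of chromosome 8 (GRCm38). It was at 822.8, 1555.5 and 1360.3 in Sox6+ libraries 103, 825 and 1211, against 409.6, 513.6 and 369.1 in the Sox6- libraries of the same numbers. All 3 Sox6+ values were above all Sox6- values, and the lowest of them was that of library 103. On the log2 scale Cdh11 was higher by 1.49 (SE 0.26, 95% interval 0.91 to 2.08), and its adjusted p of 0.0591 (limma) did not pass the threshold. An exact permutation test, 2-sided, gave p = 0.1, which is as low as this design of 3 and 3 libraries allows. DESeq2 on recovered reads gave an adjusted p of 2.32e-05, edgeR gave 0.106, and the authors' deposited table holds 1.81e-05.

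Cdh8, a type II cadherin that takes part in the wiring of cortex and striatum in mice, lies next to Cdh11. Its gene spans 99024471 to 99416471 on the minus strand of chromosome 8. Cdh8 was at 1461.0, 1779.8 and 2482.2 in Sox6+ libraries 103, 825 and 1211, against 1086.0, 659.6 and 467.4 in Sox6- libraries. The groups did not overlap, and the nearest pair were both libraries numbered 103. Cdh8 differed by 1.42 on the log2 scale (SE 0.314, 95% interval 0.71 to 2.13). Its adjusted p was 0.128 with limma, 0.238 with edgeR and 0.00234 with DESeq2. In the authors' deposited table it is 0.00229, with a log2 fold change of -1.37 that runs Sox6- over Sox6+.

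Cdh20, another type II cadherin, was lower in abundance, at 125.3, 92.2 and 134.9 in Sox6+ libraries 103, 825 and 1211 and at 23.0, 57.4 and 32.5 in the Sox6- libraries. The lowest Sox6+ value, that of library 825, was above the highest Sox6- value, also of library 825. Cdh20 differed by 1.7 on the log2 scale (SE 0.484), and the adjusted p was 0.228 with limma, 0.312 with edgeR and 0.103 with DESeq2. It is 0.0865 in the authors' deposited table. The difference rests on 354 reads in the Sox6+ and 116 reads in the Sox6- libraries. Cdh20 spans positions 104768529 to 104995481 of the plus strand of chromosome 1.

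These 3 genes were picked out as higher in every Sox6+ library, so a shared sign with markers higher there follows from that choice. All 9 dopaminergic markers had a positive log2 difference with none passing limma, and all 5 GABAergic markers had a negative one. Glutamatergic markers summed to 999.3, 162.8 and 764.2 in Sox6+ libraries 103, 825 and 1211, against 2607.5, 2262.9 and 4815.2 in Sox6- libraries. Most of that sum was Slc17a6, and of the 2 tested, 1 had a positive and 1 a negative log2 difference. The part of these neuronal markers in the cadherin differences was not tested. Pericyte and fibroblast markers summed to 27.6, 0.0 and 0.0 in Sox6+ libraries 103, 825 and 1211, against 13.4, 1.0 and 17.6 in Sox6- libraries. Of these 8 markers, Col1a1, Col1a2, Rgs5 and Lum were at 0 in all 6 libraries. Astrocyte markers summed to 382.8 to 994.3 in Sox6+ and 392.3 to 611.3 in Sox6- libraries, with Gja1 at 0 in all 6. The part of these other cells in the cadherin differences was not tested either.

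Without Sox6+ library 825, the log2 differences of Cdh11, Cdh8 and Cdh20 were 1.31, 1.45 and 1.86. Over all 18 alternative settings they stayed between 1.3 and 1.77 for Cdh11, between 0.93 and 1.92 for Cdh8 and between 1.35 and 2.21 for Cdh20. The call itself depended on the setting: Cdh11 passed in 7 of the 18, Cdh8 in 3 and Cdh20 in 0. For Cdh11 the adjusted p (limma) was 0.00951 without Sox6+ library 103 and 0.309 without Sox6- library 1211. For Cdh8 it was 0.0479 when Sox6- library 103 was left out and 0.457 when Sox6- library 1211 was. Leaving out both libraries numbered 1211 gave 0.964 for each gene, a value that many members shared in that fit, where 1 gene in all passed. The log2 differences there were 1.3 for Cdh11 and 0.93 for Cdh8.

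**Figure D2:**
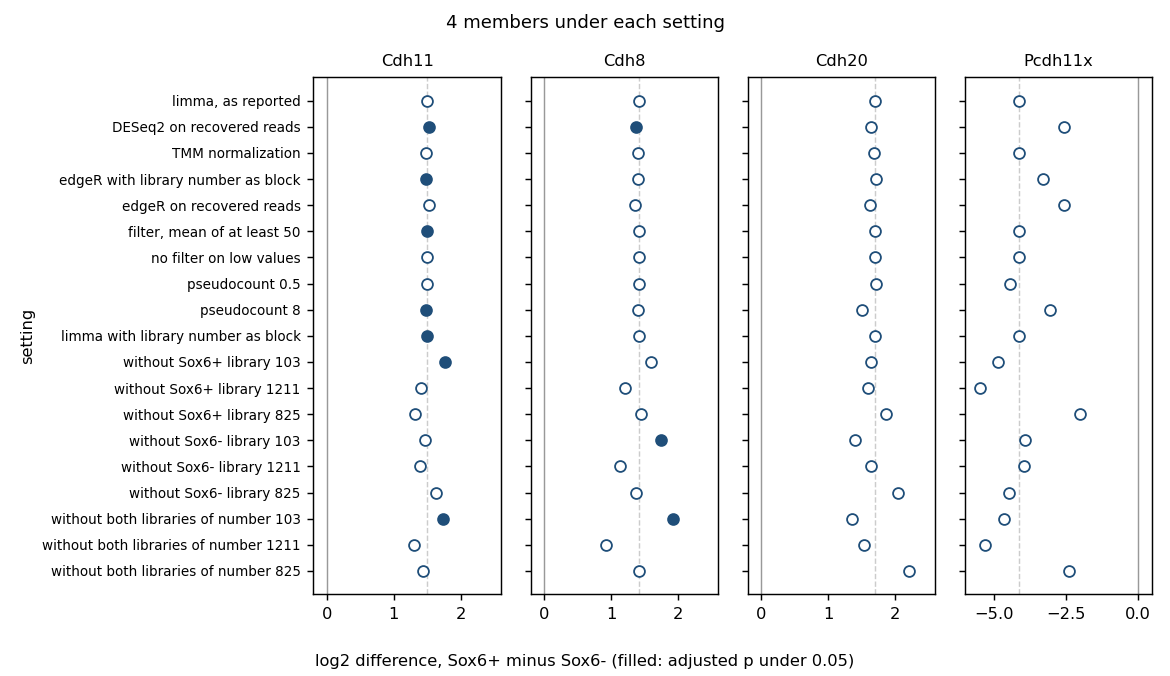
Log2 difference (Sox6+ minus Sox6-) of 4 members under the reported fit and 18 alternatives, 1 row each, filled where the adjusted p is under 0.05 and with a dashed line at the reported value. Cdh11, Cdh8 and Cdh20 stay right of 0 throughout, while Pcdh11x lies at -2.02 without Sox6+ library 825 and at -4.11 with all libraries.

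Cdh8 and Cdh11 are next to each other on chromosome 8, 3.22 Mb apart with 0 protein-coding genes between them in GENCODE M21. The next protein-coding gene, 1.32 Mb beyond Cdh11, is Cdh5, the VE-cadherin of endothelium, which was at 0 in all 6 libraries. Endothelial markers summed to at most 33.2 in any library, with Cldn5 at 0 throughout. Cdh20 has 2 relatives on chromosome 1, Cdh7, 4.99 Mb away with 20 protein-coding genes between, and Cdh19, which lies 0.75 Mb beyond Cdh7. Cdh19, a cadherin of Schwann cells and other glia, was at 0 in all libraries. Cdh7 averaged 234.2 ± 90.6 in Sox6+ and 323.2 ± 40.0 in Sox6- neurons (SD, n = 3 each), a log2 difference of -0.53 with a 95% interval of -1.26 to 0.19. Cdh20 and its neighbour Cdh7 thus had differences of opposite sign, of which neither passed.

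Type II cadherins fall into groups by which partners their outer domains prefer: Cdh8, Cdh11 and Cdh24; Cdh6, Cdh9 and Cdh10; and Cdh7, Cdh12, Cdh18, Cdh20 and Cdh22. The first group was summed as normalised count per kb to 281, 405 and 473 in Sox6+ libraries 103, 825 and 1211, against 188, 143 and 104 in Sox6- libraries, without overlap. Almost all of it was Cdh8 and Cdh11. Neither gene overlapped between groups by itself, so the sum adds no separate result about the binding group. Cdh24 had no read in Sox6+ neurons and 15 in Sox6- neurons, and was not tested. With a floor of 3 reads for the Sox6+ group, pooled reads gave a 5.03-fold lower level in Sox6+. The floor covers the counting error of the Sox6+ group only, not that of the 15 Sox6- reads. The second group summed to 233 ± 124 over Sox6+ and 236 ± 122 over Sox6- libraries, and the third to 112 ± 39.3 and 114 ± 8.1 (normalised count per kb, SD, n = 3 each). Both overlapped between the groups of neurons. These sums are given as a description, with no test.

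**Figure D3:**
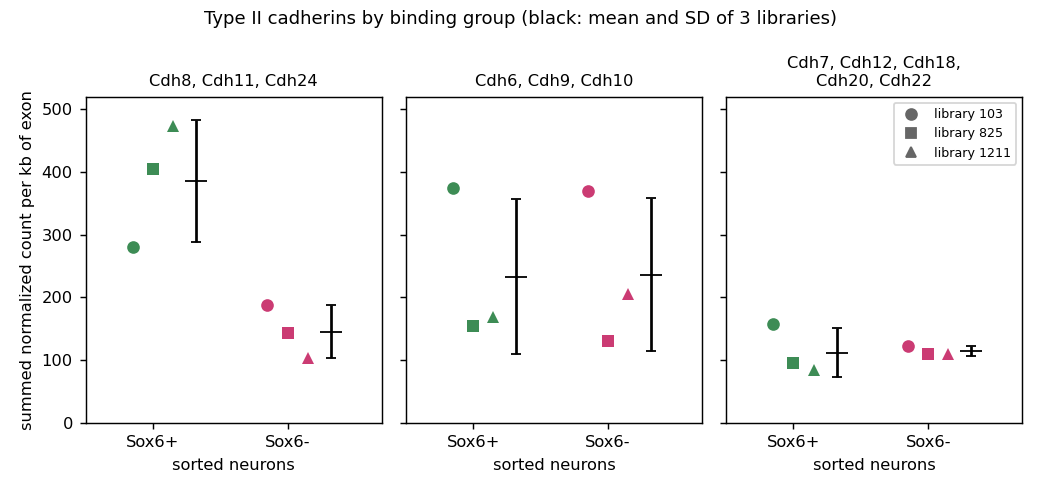
Summed normalised count per kb of exon of 3 groups of type II cadherins in each library, Sox6+ left of Sox6-, with the mean and SD of 3 libraries in black. Only in the left panel (Cdh8, Cdh11, Cdh24) do the 2 groups of libraries not overlap, which follows from Cdh8 and Cdh11, each without overlap. In the middle panel both libraries numbered 103 are highest, at 375 and 370.

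The share of the first group in the summed level per kb of all type II cadherins was 34.6%, 61.9% and 65.3% in Sox6+ libraries 103, 825 and 1211 and 27.6%, 37.4% and 24.8% in Sox6- libraries. Sox6+ library 103 lay below Sox6- library 825, so the shares overlapped. The ratio of Cdh8 to Cdh11 per kb was 2.04, 1.32 and 2.1 in Sox6+ and 3.05, 1.48 and 1.46 in Sox6- libraries, which also overlapped. Set against Cdh10, Cdh8 was 2.12, 3.26 and 5.39 times as high per kb in Sox6+ libraries and 1.15, 1.83 and 0.95 times in Sox6- libraries. The ratio of Cdh11 to Cdh10 was 1.04, 2.48 and 2.57 in Sox6+ libraries 103, 825 and 1211 and 0.378, 1.24 and 0.652 in Sox6- libraries. Cdh8 over Cdh10 did not overlap between groups, while Cdh11 over Cdh10 did, Sox6+ library 103 lying below Sox6- library 825. As Cdh8 did not overlap between groups by itself, its ratio to Cdh10 is not a separate result. These ratios within a library do not depend on its size factor.

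Cdh9 and Cdh10, which lie side by side on chromosome 15 with Cdh6, Cdh12 and Cdh18, varied more between libraries than between groups. Cdh9, needed in mice for mossy fibre synapses of the hippocampus, was at 966.8, 297.2 and 362.3 in Sox6+ libraries 103, 825 and 1211 and at 838.5, 262.8 and 454.4 in the Sox6- libraries. In both groups library 103 was highest and library 825 lowest. Cdh10 was at 894.8, 709.4 and 597.9 in the Sox6+ and at 1223.2, 469.3 and 639.0 in the Sox6- libraries, again with 103 highest in both. The log2 difference was 0.02 for each, with 95% intervals of -1.25 to 1.29 for Cdh9 and -0.74 to 0.77 for Cdh10. GABAergic markers were also highest in library 103 of each group, at 6669.9 for Sox6+ and 15501.2 for Sox6-, and their part was not tested. No protein-coding gene lies between the 5 cadherins of this stretch.

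The remaining type II members were low and variable. Cdh22 spread from 23.1 to 243.7 over the Sox6+ libraries and from 105.7 to 125.7 over the Sox6- libraries. Cdh18 had means of 95.3 ± 53.6 in Sox6+ and 100.1 ± 19.1 in Sox6- neurons (SD, n = 3 each). Cdh6, which guides the targeting of some retinal axons in mice, was at 119.4, 0.0 and 53.6 in Sox6+ libraries 103, 825 and 1211, against 103.6, 93.7 and 123.3 in Sox6- libraries. Cdh12 was at 86.8, 0.0 and 36.0 in Sox6+ libraries, against 156.4, 36.3 and 159.5 in Sox6- libraries. Their log2 differences of -2.52 and -2.73 became -0.4 and -0.78 without Sox6+ library 825, where both are listed at 0.

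Sox6+ library 825 alone was at 0 for 4 of the 27 members, or 14.8%, and for 4.36% of all tested genes. These were Cdh6, Cdh12, Cdh23 and Pcdh11x. That library had the fewest reads (10397924, against 11262784 to 12952768 elsewhere) and the fewest detected genes of the 6, and held macrophage transcripts. Its GABAergic markers summed to 5.7, against 6669.9 and 1472.1 in Sox6+ libraries 103 and 1211. The part of these features in the 0s was not tested.

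**Figure D4:**
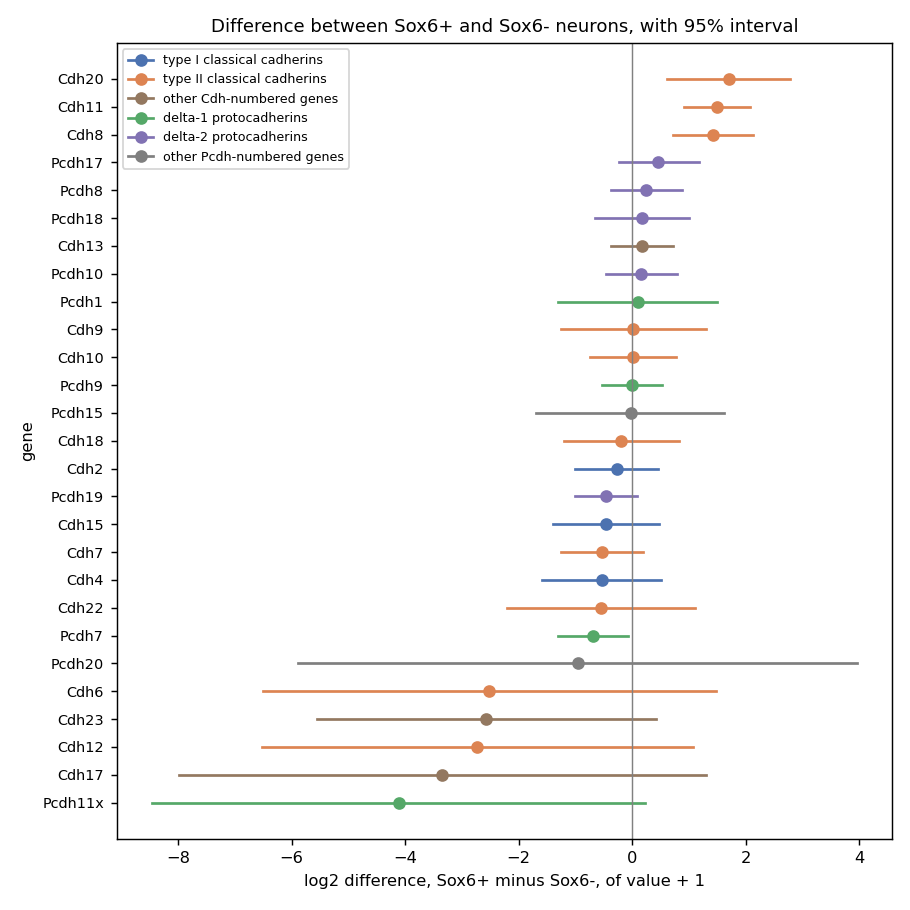
Log2 difference of each tested member (Sox6+ minus Sox6-, points) with its 95% interval from limma (lines), coloured by class and ordered by size. The intervals of Cdh20, Cdh11 and Cdh8 lie above 0, that of Pcdh7 lies below 0, all before adjustment, and the widest belong to members with a 0 in some library.

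Among delta-1 protocadherins, Pcdh9, Pcdh7, Pcdh11x and Pcdh1 were all tested. Pcdh7, whose cytoplasmic part binds protein phosphatase 1, was at 515.0, 287.0 and 305.0 in Sox6+ libraries 103, 825 and 1211 and at 465.3, 581.1 and 700.2 in the Sox6- libraries. Sox6+ library 103 lay above Sox6- library 103, so the groups overlapped. Pcdh7 differed by -0.69 on the log2 scale (SE 0.277, adjusted p 0.403, limma). Without Sox6+ library 103 the difference was -0.95.

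Pcdh11x, an X-linked gene, was lower in all 3 Sox6+ libraries. It was at 50.3, 0.0 and 118.3 in Sox6+ libraries 103, 825 and 1211, against 418.3, 190.3 and 394.2 in Sox6- libraries. The highest Sox6+ value was below the lowest Sox6- value, that of library 825. Pcdh11x differed by -4.11 on the log2 scale (SE 1.78, adjusted p 0.452, limma). Without Sox6+ library 825, which is listed at 0, the difference was -2.02 with an adjusted p of 0.217 (limma). With edgeR and with DESeq2 it was -2.57, with adjusted p of 0.523 and 0.596. Its gene spans positions 120290259 to 120910619 of the plus strand of the X chromosome.

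Pcdh9, the most abundant protocadherin per kb in both groups together, was at 917.5, 1252.6 and 957.4 in Sox6+ libraries 103, 825 and 1211 and at 1439.0, 810.7 and 962.7 in Sox6- libraries. The values were interleaved, and the log2 difference was -0.01 with a 95% interval of -0.54 to 0.52. Pcdh1 was much lower in abundance, at 47.5 ± 32.4 in Sox6+ and 39.6 ± 11.5 in Sox6- neurons (SD, n = 3 each).

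The 5 delta-2 protocadherins, all tested, were present in every library and none passed. Pcdh17 was the highest, at 1222.3, 816.4 and 2016.4 in Sox6+ libraries 103, 825 and 1211 and at 785.7, 856.0 and 1141.7 in Sox6- libraries. Its groups overlapped through library 825, and the log2 difference was 0.46 with a 95% interval of -0.24 to 1.17. Pcdh10, which recruits the WAVE complex to growing axons in mice, averaged 709.0 ± 162.2 in Sox6+ and 644.8 ± 196.1 in Sox6- neurons (SD, n = 3 each). Pcdh8, an activity-regulated synaptic protocadherin, averaged 367.3 ± 59.2 and 314.1 ± 85.2, and Pcdh18 averaged 275.9 ± 90.1 and 250.5 ± 98.5, in Sox6+ and Sox6- neurons in that order. The 95% intervals of the differences were -0.46 to 0.78 for Pcdh10, -0.37 to 0.88 for Pcdh8 and -0.65 to 0.99 for Pcdh18.

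Pcdh19, the X-linked gene of a human epilepsy, was at 257.5, 338.2 and 231.0 in Sox6+ libraries 103, 825 and 1211, against 325.2, 385.7 and 415.5 in Sox6- libraries. Only Sox6+ library 825 reached the Sox6- range. Pcdh19 differed by -0.46 on the log2 scale (SE 0.244, adjusted p 0.509, limma). The delta-2 class as a whole summed to 307 ± 55.1 normalised counts per kb over Sox6+ and 264 ± 60.3 over Sox6- libraries, and the delta-1 class to 198 ± 17.0 and 241 ± 49.0 (SD, n = 3 each), with overlap in both.

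The members outside these classes included Cdh13, described above, which was at 2133.8, 3797.6 and 3367.5 in Sox6+ libraries 103, 825 and 1211 and at 2350.4, 3443.1 and 2371.5 in Sox6- libraries. In both groups library 825 was highest and library 103 lowest. Its log2 difference of 0.17 had a 95% interval of -0.37 to 0.71. Cdh13 spans positions 118283733 to 119324921 of the plus strand of chromosome 8. Cdh23 and Pcdh15 encode the opposite ends of the tip link of inner-ear hair cells. Cdh23 was at 3.95, 0.0 and 4.62 in Sox6+ libraries 103, 825 and 1211, against 11.5, 32.2 and 13.0 in Sox6- libraries, a total of 9 reads against 58, with an adjusted p of 0.496 (limma). Pcdh15 was at 47.4, 454.3 and 203.3 in Sox6+ and 175.6, 141.0 and 191.1 in Sox6- libraries, so that the Sox6+ values lay on both sides of the Sox6- range. Cdh17, the liver-intestine cadherin, had no read in Sox6+ neurons and 67 reads in Sox6- neurons, all in libraries 103 and 1211. With the floor of 3 reads for the Sox6+ group, pooled reads gave a 22.5-fold lower level in Sox6+. The floor covers neither the counting error of the Sox6- reads nor the spread between libraries. The log2 difference of Cdh17 was -3.35 with a 95% interval of -7.99 to 1.3 and an adjusted p of 0.568 (limma). Pcdh20 was at 0 in library 825 of both groups, and otherwise at 61.2 and 21.3 in Sox6+ and at 109.4 and 90.9 in Sox6- neurons. Cdh26 had 16 reads, all in Sox6+ library 1211, the library with ependymal markers at 474.1, and the source of these reads was not tested. Cdh16, a kidney cadherin, and Pcdh12, an endothelial protocadherin, were at 0 in all libraries, which lets each be at up to 3 reads per group.

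The partners of these proteins, and the atypical cadherins, were followed in 6 lists of 73 symbols. The lists count older and current names of some genes. Of the 73 symbols, 64 were in the table and 61 were tested. With limma 0 passed and with edgeR 0, while DESeq2 and the authors' deposited table each had 1, Cdhr2, lower in Sox6+ (over all genes, 2.98% passed with DESeq2 and 2.83% in that table). At an unadjusted p of 0.05, 6 of the 61 passed with limma, 2 higher and 4 lower, where 11.4% of all tested genes did. With edgeR 6 passed, where 10.0% of all tested genes did. The median log2 difference was -0.02, as over all tested genes.

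Of the 14 catenins and adaptors tested, beta-catenin (Ctnnb1) was at 3120.4, 2570.0 and 1986.8 in Sox6+ libraries 103, 825 and 1211 and at 2665.1, 2173.2 and 1897.5 in Sox6- libraries, with overlap. The smallest p belonged to Ctnnbip1, an inhibitor of beta-catenin signalling, at 869.0 ± 195.1 in Sox6+ and 580.0 ± 90.6 in Sox6- neurons (SD, n = 3 each), with an adjusted p of 0.377 (limma). Among 9 atypical cadherins tested the smallest p was that of Cdhr2. Cdhr2, a microvillar protocadherin of epithelia, had no read in Sox6+ neurons and 105 reads in Sox6- neurons. It reached the filter of 10 only through its Sox6- values, with a mean of 33.0 there. With the floor of 3 reads for the Sox6+ group, pooled reads gave a 35.2-fold lower level in Sox6+. The counting error of the Sox6- reads is not covered by it. The adjusted p was 0.407 (limma) and 0.00963 in the authors' deposited table. The Sox6- reads lay mostly in libraries 103 and 1211, at 41.3 and 55.6 normalised reads against 2.01 in library 825. Cdh17 had 28.8 and 34.3 normalised reads in Sox6- libraries 103 and 1211 and none in library 825.

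The other 4 lists had no member past the threshold with limma, edgeR or DESeq2. Of 16 protocadherin partners, among them the WAVE subunits Cyfip2, Nckap1 and Wasf1, the smallest p was that of Cyfip1, with a log2 difference of -0.7. Among 7 phosphatases and kinases of junctions it was that of Ptprm, a receptor phosphatase that associates with cadherins, at 61.2, 37.6 and 57.3 in Sox6+ libraries 103, 825 and 1211, against 109.4, 106.7 and 188.3 in Sox6- libraries, with an adjusted p of 0.278 (limma). Among 6 genes of the nectin and afadin list it was that of Lmo7, with a log2 difference of 1.4 and an adjusted p of 0.452 (limma).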

How the data were processed

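The authors deposited 1 table of 23337 gene symbols with a signal per library: reads per gene, scaled by the library's size factor. Their own DESeq2 test is in the same deposited table. The log2 fold changes in it were computed by the authors as Sox6- over Sox6+. A score, the statistic of that test, was deposited with them. The authors also give a p-value per gene, raw and adjusted. Per the submitters' processing notes, the software was STAR, HTSeq, cutadapt, FastQC and DESeq2 and the builds were GRCm38 and mm10, with no versions, order or settings stated. Libraries were made with a stranded poly(A) kit, per the labels' protocols. The strand setting of the counting is unknown here, so reads of a gene and an antisense partner may not be separable. Cdh12 and Pcdh7 each overlap 1 other tested gene.

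All values above 0 were whole multiples of 1 step per library (100.0%, within 0.01 of a whole number). The step ran from 0.9241 to 1.1387. The signal was tested as log2(value + 1) with limma 3.58.1 (trend, robust moderation, 2-sided, no block) in R 4.3.3 on the 13175 genes with a mean of at least 10, with Benjamini-Hochberg adjustment at 0.05. Recovered reads were tested with edgeR 4.0.16 and DESeq2 1.42.0. The log2(value + 1) scale understates the change of low genes, and a 0 in 1 library can enlarge it. Exon lengths and positions come from GENCODE M21 (GRCm38), matched by symbol for all 35 members, and upstream sequences from RefSeq (GRCm38.p6). Floors cover the counting error of the group without reads only, not that of the other group. Python 3.11.15, pandas 2.3.3 and matplotlib 3.10.9 were used for tables and figures.

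The members, lists and tests were chosen with earlier results of these data known. Named in full were members past 0.05 in any tool or in the authors' table, members with a mean of at least 50 whose groups do not overlap, and the 3 highest per kb; of the other lists, genes past 0.05 and otherwise the smallest p. A gene that this rule names is not reported here. Pcdh7, Pcdh19 and other members given in full, the binding groups, the ratios and the motifs were added after values were seen.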

Additional observations from a re-analysis of the deposited data

How the results depend on the processing

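Over all tested genes, limma called 40, against 387 with DESeq2, 6 with edgeR, 21 with no filter on low values, 69 with a pseudocount of 8, and 1 to 161 when libraries were left out. Among the 27 members the count of 0 became 2 with DESeq2, 1 with a filter of 50, 1 with a pseudocount of 8, and 0 to 2 when libraries were left out. In the partner and atypical cadherin lists it became 1 with DESeq2. With the library number as a replicate block, limma called 267 genes and edgeR 120, and each called 1 member, Cdh11 (adjusted p 0.00795 with limma and 0.034 with edgeR). The numbers were not taken as pairs, since deviations from the group means correlated at only 0.268, 0.172 and 0.079 for 103, 825 and 1211. Each library still correlated best with its own number. Both groups share the same numbers, but the labels do not say whether a number stands for an animal, a batch or a day. Whether the libraries are paired therefore cannot be told from the labels. Without Sox6+ library 103 alone limma called 161 genes, and without Sox6- library 1211 alone 1.

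Of 27 members, 16 kept their sign under all alternatives run; Cdh23, Cdh17, Pcdh20 and Pcdh1 have no value under the filter of 50. When libraries were left out, the log2 difference ranged from -0.33 to 0.31 for Pcdh9, -0.12 to 0.41 for Pcdh10, -0.29 to 0.4 for Cdh10, -0.5 to 0.44 for Cdh9, -0.15 to 0.48 for Pcdh18, -0.64 to 0.17 for Cdh2, -3.18 to 0.78 for Pcdh20, -0.61 to 0.05 for Cdh18, -1.36 to 0.32 for Cdh22, -0.53 to 0.65 for Pcdh1 and -0.89 to 0.89 for Pcdh15. It also turned for Cdh10 with DESeq2 (-0.08), edgeR (-0.1) and edgeR with the block (-0.0), for Cdh22 with DESeq2 (0.02) and edgeR (0.0), and for Pcdh15 with DESeq2 (0.47) and edgeR (0.45). The cause was not tested. Depth limits the low members most: Cdh23 rests on 9 reads in Sox6+ and 58 in Sox6- neurons, and Cdh17 on 0 and 67.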
